A study of Mus musculus with 4 samples.

Results

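The mouse Cd209 genes encode a family of C-type lectins, and all 7 members listed in these data, Cd209a to Cd209g, were described here out of 30406 genes listed in every library. The members were taken by gene symbol and every one had at least 1 unique molecular identifier (UMI, the tag that marks each captured mRNA molecule) in each library. The cells came from popliteal lymphatic vessels and the adjacent saphenous vein of C57BL6 mice, and each of the 4 droplet libraries pooled the vessels of 3 mice. The replicates tdT1 and tdT2 held tdTomato-positive cells sorted from Cspg4-Cre;tdTomato mice, in which the Cspg4 promoter, active in mural cells, drives the Cre that switches on the reporter. The WT and TNF-Tg cells, from males aged 9 months by the labels, were sorted on scatter alone. TNF-Tg mice carry a TNF transgene and develop chronic inflammatory-erosive arthritis, and WT mice were their control. With 1 library for WT and 1 for TNF-Tg, condition and preparation cannot be told apart and no p-value was computed between them.

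Cd209 proteins sit on the surface of myeloid cells and bind mannose- and fucose-bearing glycans on microbes and on the animal's own glycoproteins. Human CD209 (DC-SIGN) is named after dendritic cells, whereas in the mouse the family was expanded by gene duplication. Cd209a is the member usually cited as the dendritic cell form, Cd209b (SIGNR1) is known from marginal zone macrophages of the spleen and medullary macrophages of lymph nodes, and Cd209d (SIGNR3) is a receptor for fungal and mycobacterial ligands. The question addressed was which paralog separated dendritic cells from resident macrophages in vessel tissue, and how the level of each compared between TNF-Tg and WT.

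The 7 genes lie in a cluster on chromosome 8 (GRCm38). Cd209a (ENSMUSG00000031494) spans chr8:3743397-3748984, and it is followed by Cd209e (ENSMUSG00000040197) at chr8:3847965-3854309, Cd209d (ENSMUSG00000031495) at chr8:3871824-3878555, Cd209b (ENSMUSG00000065987) at chr8:3917655-3926844 and Cd209c (ENSMUSG00000040165) at chr8:3940222-3954746, all on the minus strand. Cd209f (ENSMUSG00000051906) at chr8:4102787-4105835, also on the minus strand, is separated from Cd209c by the widest gap of the cluster, 148040 bases. Cd209g (ENSMUSG00000079168) at chr8:4134098-4137707 is the only member on the plus strand, so the starts of Cd209f and Cd209g point away from each other across 28262 bases.

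The promoters of Cd209f and Cd209g are shown because these genes had the most alike levels of any pair of members across cell types (Pearson r = 0.996 over 16 sums). Each sequence holds the 250 bases before and the 50 bases after the RefSeq start (GRCm38.p6), at chr8:4105715-4106014 on the minus strand for Cd209f and at chr8:4134486-4134785 on the plus strand for Cd209g, and capitals mark the run that both share letter for letter. The RefSeq start of both genes lies inside the gene span given above.
Cd209f: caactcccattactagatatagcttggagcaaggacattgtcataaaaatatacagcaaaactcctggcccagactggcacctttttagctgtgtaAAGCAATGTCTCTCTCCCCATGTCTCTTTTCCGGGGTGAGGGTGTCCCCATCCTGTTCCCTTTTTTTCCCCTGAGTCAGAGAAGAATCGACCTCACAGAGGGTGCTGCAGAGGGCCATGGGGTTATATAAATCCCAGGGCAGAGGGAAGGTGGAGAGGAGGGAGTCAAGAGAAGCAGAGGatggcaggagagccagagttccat
Cd209g: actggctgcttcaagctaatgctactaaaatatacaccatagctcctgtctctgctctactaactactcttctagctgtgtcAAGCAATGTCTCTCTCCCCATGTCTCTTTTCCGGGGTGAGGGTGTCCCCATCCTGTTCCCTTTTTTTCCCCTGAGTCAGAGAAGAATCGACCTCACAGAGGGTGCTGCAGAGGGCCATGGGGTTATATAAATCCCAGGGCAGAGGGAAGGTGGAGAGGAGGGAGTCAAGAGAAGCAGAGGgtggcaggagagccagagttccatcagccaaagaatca
The shared run was 180 bases long, began 154 bases before the start of Cd209f and 168 bases before that of Cd209g, and crossed both starts. It occurred in 2 of 32817 mouse promoters of this length, and the windows were 92.2% identical over 281 aligned bases. The next longest shared run among the 21 pairs of members, between Cd209a and Cd209b, was 17 bases.

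The promoters of Cd209a, Cd209d and Cd209e are shown in part because Cd209a and Cd209d gave most Cd209 UMIs in type 2 conventional dendritic cells. These promoters were also chosen because all 3 held the letters of the ETS-IRF composite element. The letters are GGAA and GAAA with any 2 bases between them, searched on both strands. The promoters lie at chr8:3748935-3749234, chr8:3878450-3878749 and chr8:3854237-3854536 on the minus strand, and capitals mark the match.
Cd209a: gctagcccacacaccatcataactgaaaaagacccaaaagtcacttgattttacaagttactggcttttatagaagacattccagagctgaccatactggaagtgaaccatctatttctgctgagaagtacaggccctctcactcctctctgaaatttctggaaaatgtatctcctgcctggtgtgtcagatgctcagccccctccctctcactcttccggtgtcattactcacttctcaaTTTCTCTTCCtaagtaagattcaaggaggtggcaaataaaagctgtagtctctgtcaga
Cd209d: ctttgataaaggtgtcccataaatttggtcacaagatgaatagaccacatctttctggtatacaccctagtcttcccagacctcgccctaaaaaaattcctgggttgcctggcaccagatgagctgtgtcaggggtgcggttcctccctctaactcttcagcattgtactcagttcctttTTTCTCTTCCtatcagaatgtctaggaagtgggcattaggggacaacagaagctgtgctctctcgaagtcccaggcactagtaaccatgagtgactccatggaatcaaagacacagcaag
Cd209e: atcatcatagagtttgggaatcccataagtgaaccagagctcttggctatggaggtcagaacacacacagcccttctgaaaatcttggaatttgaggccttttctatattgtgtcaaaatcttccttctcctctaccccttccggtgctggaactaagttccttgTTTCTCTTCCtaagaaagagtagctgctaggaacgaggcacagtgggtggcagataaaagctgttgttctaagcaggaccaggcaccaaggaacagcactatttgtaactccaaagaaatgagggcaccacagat
These letters were found in 3 of the 7 member promoters, 9 bases before the start of Cd209a, 70 before that of Cd209d and 85 before that of Cd209e, and in 2.72% of all 32817 promoters. A PU.1 motif (AGGAAGT) stood in the promoter of Cd209d and in 9.35% of all promoters, and a C/EBP motif (TTGCNNAA) in that of Cd209b and in 10.8%. The letters of an IRF repeat (GAAA and GAAA with any 2 bases between), a MAF site (TGCTGAC) and a KLF site (GGGTGTGG) were in no member window, against 3.43%, 4.67% and 3.56% of all promoters. A match of letters is a description of the sequence and not a site of binding. Cd209d and Cd209e, which held the ETS-IRF letters, were higher in resident macrophages than in type 2 conventional dendritic cells, as given below. Cd209c, also detected in those dendritic cells, did not hold the letters. Whether the letters bear on the level of a gene was not tested.

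The libraries held 1504 cells (tdT1), 454 (tdT2), 5488 (WT) and 3391 (TNF-Tg), with median depths of 4932.5 to 12660 UMIs per cell and 0 to 5 cell barcodes shared between any pair of libraries. The tdT1 library stood apart, with 516 cells above 10% mitochondrial UMIs, and the test on sums of at least 20 cells used no tdT1 sum. Myeloid cells were gated on marker genes that included no Cd209 gene. Resident macrophages were cells with high C1q genes, Lyve1 (a hyaluronan receptor) and at least 1 of Cd163, Folr2, F13a1, Cbr2 and Fxyd2, and were called Lyve1 macrophages, and C1q-high cells with Ccr2 and without Lyve1 were called Ccr2 macrophages. Type 2 conventional dendritic cells (cDC2) were C1q-low cells with Flt3, at least 2 of 8 antigen presentation and lineage genes and neither Xcr1 nor Clec9a. The gates held 1304 WT and 254 TNF-Tg Lyve1 macrophages and 75 WT and 140 TNF-Tg cDC2, against 11 and 39 Lyve1 macrophages and 16 and 8 cDC2 in tdT1 and tdT2. At or above the C1q threshold lay 1963 cells in WT and 453 in TNF-Tg. Within 2-fold of it, on either side, lay 219 cells in WT and 94 in TNF-Tg.

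Of the markers that the gates did not use and that are given here, Mrc1 and Itgax followed the names. Siglech and Mgl2, which the list checked for cDC2 also held, did not throughout. Zbtb46 and Kmo, on the same list, are not given here. Mrc1, the macrophage mannose receptor, stood at 2657 CPM in WT Lyve1 macrophages and 192 in WT cDC2, and at 3421 and 80.6 in TNF-Tg. Itgax, which encodes CD11c, stood at 22.9 CPM in WT cDC2 and 0.597 in WT Lyve1 macrophages, and at 43.9 and 1.89 in TNF-Tg. Siglech, counted over the genes listed in every library, stood at 14.0 CPM in WT cDC2 and 79.7 in WT Lyve1 macrophages. In TNF-Tg it stood at 15.7 and 8.55. Mgl2 did not pass between these types in the edgeR test below (log2 difference 0.75 toward macrophages, adjusted p = 0.516). CPM here are the UMIs of a gene summed over the gated cells of 1 library, per 1000000 UMIs of those cells. Each molecule counts once at its 3′ end, so CPM are not scaled by transcript length, and the capture of each paralog is unknown. Therefore cell types were compared gene by gene. The last 600 bases of the members' transcripts shared no 50-base word in any of the 21 pairs. Only Cd209f and Cd209g shared exact 30-base words, 2 of them. Mixing of reads that map with mismatches or lie outside these bases was not tested.

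Cd209a was the member with its highest level in dendritic cells. Its level in cDC2 was 1031 CPM in WT, 686 in TNF-Tg, 505 in tdT1 and 231 in tdT2. Its level in Lyve1 macrophages was 277 CPM in WT, 256 in TNF-Tg, 385 in tdT1 and 240 in tdT2. The gated types thus did not overlap in the scatter-sorted libraries but did across all 4. The level in cDC2 over that in Lyve1 macrophages was 3.72-fold in WT (95% exact interval, 3.47 to 3.98) and 2.68-fold in TNF-Tg (2.45 to 2.93), whereas it was 1.31-fold in tdT1 (0.855 to 2.07) and 0.965-fold in tdT2 (0.507 to 1.77), where both intervals hold 1. These intervals, as all intervals on shares, levels and ratios here, cover only the error of counting, and differences among mice and preparations lie outside them. With clusters in place of gates, Cd209a in cDC2 stood at 1438 CPM in WT, 679 in TNF-Tg, 692 in tdT1 (29 cells) and 907 in tdT2 (12 cells). The cluster of the Lyve1 macrophages stood at 314, 262, 315 and 247 CPM in the same order, so the clustered types did not overlap.

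**Figure D1:**
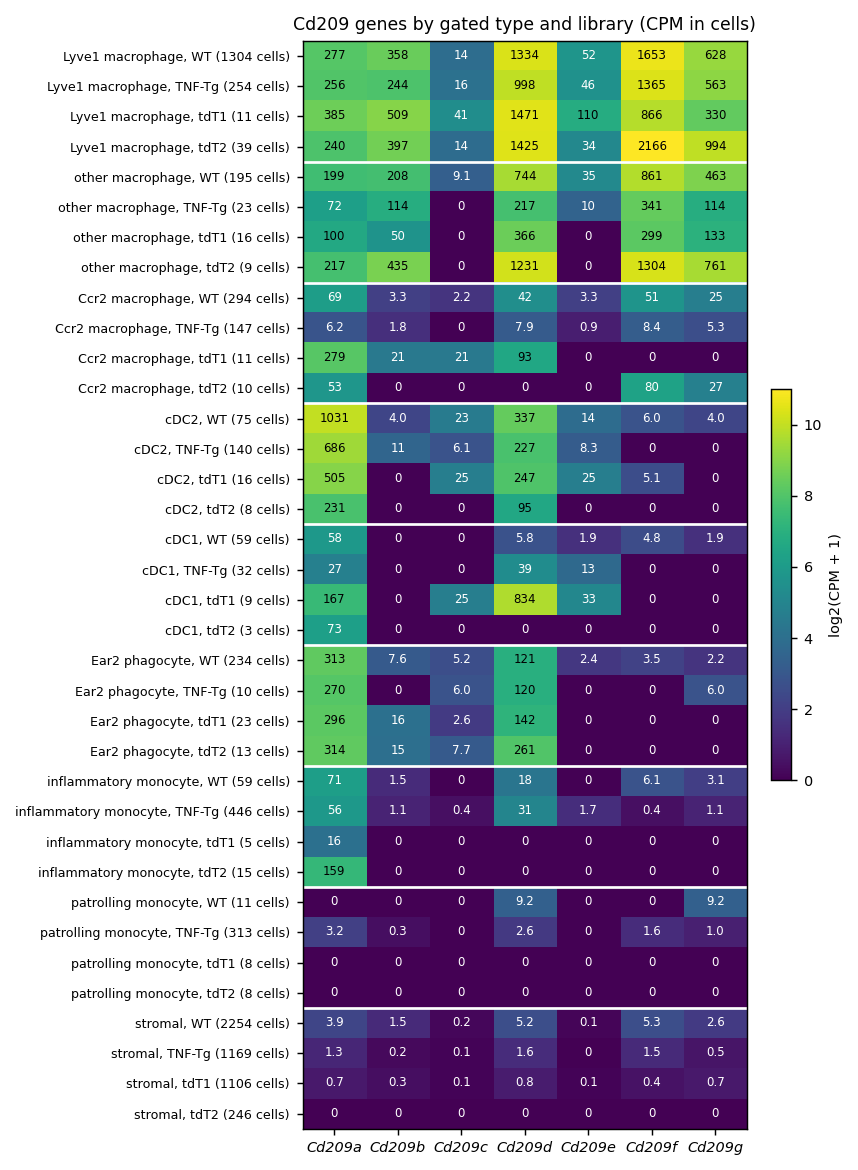
Level of each Cd209 member (columns) in the gated cell types of each library (rows), with CPM printed in the cells and log2(CPM + 1) as colour. Cd209a is highest in cDC2 of WT (1031 CPM) and TNF-Tg (686 CPM), and Cd209b, Cd209f and Cd209g are high in the rows of the Lyve1 macrophages and at or near 0 in those of cDC2.

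Cd209a was also high in the Ear2 phagocytes, C1q-low cells with the eosinophil-type ribonuclease Ear2 and at least 1 of Cd226, Retnla and Fcrls. It stood there at 313 CPM in WT (234 cells), 270 in TNF-Tg (10 cells), 296 in tdT1 (23 cells) and 314 in tdT2 (13 cells). This range over the libraries was narrower than in the gates of cDC2 or Lyve1 macrophages. It was not narrow with clusters in place of gates. The cluster of the Ear2 phagocytes stood at 204 CPM in WT, 51.4 in TNF-Tg, 304 in tdT1 and 28.6 in tdT2 (11 cells). In type 1 dendritic cells (cDC1, Xcr1 or Clec9a positive) it stood at 57.7 CPM in WT and 26.6 in TNF-Tg, and in WT 54 of its 60 UMIs came from 1 cell. In inflammatory monocytes it stood at 70.5 CPM in WT and 56.5 in TNF-Tg, and in WT 41 of 46 UMIs came from 1 of 59 cells. In patrolling monocytes of TNF-Tg it stood at 3.24 CPM, near the 1.30 CPM of stromal cells, which served as the background. Ordered by level, cDC2 were followed in WT by Ear2 phagocytes, Lyve1 macrophages, the C1q-high cells of neither macrophage gate (199 CPM), inflammatory monocytes, Ccr2 macrophages (69.1 CPM) and cDC1, and the intervals of the last 3 overlapped.

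Cd209f and Cd209g were the members of the resident macrophages. Cd209f stood at 1653 CPM in WT Lyve1 macrophages, 1365 in TNF-Tg, 866 in tdT1 and 2166 in tdT2. In cDC2 it stood at 5.99 CPM in WT (6 UMIs), 5.05 in tdT1 (1 UMI) and 0 in TNF-Tg and tdT2. Every Lyve1 macrophage sum was therefore above every cDC2 sum. The ratio was 276-fold in WT (127 to 752), and against a floor of 3 UMIs per library in cDC2 it was at least 819-fold in TNF-Tg and at least 53.0-fold in tdT2. The shares of WT cDC2 with a UMI of Cd209f, Cd209g or Cd209b are read as background further below. The WT ratio of Cd209f, and that of Cd209b below, thus give a distance to background and not to a level in cDC2.

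Cd209g followed Cd209f at a lower count. It stood at 628 CPM in WT Lyve1 macrophages, 563 in TNF-Tg, 330 in tdT1 and 994 in tdT2, and in cDC2 at 3.99 CPM in WT (4 UMIs) and 0 in the other libraries. Cd209f UMIs outnumbered Cd209g UMIs 2.63 times in WT Lyve1 macrophages (2.57 to 2.69), 2.42 times in TNF-Tg (2.29 to 2.56), 2.62 times in tdT1 (1.62 to 4.39) and 2.18 times in tdT2 (1.78 to 2.67). The genes thus kept nearly the same ratio in all libraries, although the level of each ranged more than 2-fold between tdT1 and tdT2.

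Cd209b (SIGNR1) was also higher in Lyve1 macrophages than in cDC2 of every library. It stood at 358 CPM in WT Lyve1 macrophages, 244 in TNF-Tg, 509 in tdT1 and 397 in tdT2, and in cDC2 at 3.99 CPM in WT, 11.1 in TNF-Tg and 0 in tdT1 and tdT2. The ratio was 89.7-fold in WT (35.0 to 329) and 22.0-fold in TNF-Tg (14.1 to 36.2). Its 20 UMIs in TNF-Tg cDC2 lay in 4.29% of the cells, up to 7 in 1 cell.

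Cd209d (SIGNR3) had UMIs in both cell types, at a lower level and in fewer cells of the cDC2. It stood at 1334 CPM in WT Lyve1 macrophages, 998 in TNF-Tg, 1471 in tdT1 and 1425 in tdT2, and in cDC2 at 337, 227, 247 and 95.3 CPM in the same order. Every macrophage sum was above every cDC2 sum, by 3.96-fold in WT (3.55 to 4.42), 4.39-fold in TNF-Tg (3.96 to 4.88), 5.94-fold in tdT1 (4.20 to 8.52) and 15.0-fold in tdT2 (7.13 to 37.7). In Ear2 phagocytes it stood at 121 CPM in WT, 120 in TNF-Tg, 142 in tdT1 and 261 in tdT2.

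Cd209e and Cd209c were the members with few UMIs. Cd209e stood at 51.7 CPM in WT Lyve1 macrophages, 45.8 in TNF-Tg, 110 in tdT1 (8 UMIs) and 34.3 in tdT2 (5 UMIs), and in cDC2 at 14.0 CPM in WT, 8.33 in TNF-Tg, 25.3 in tdT1 (5 UMIs) and 0 in tdT2. Cd209c stood at 14.1 CPM in WT Lyve1 macrophages and 16.1 in TNF-Tg, and in cDC2 at 23.0 CPM in WT and 6.11 in TNF-Tg. For Cd209c the order of the cell types was thus opposite in WT and TNF-Tg.

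**Figure D2:**
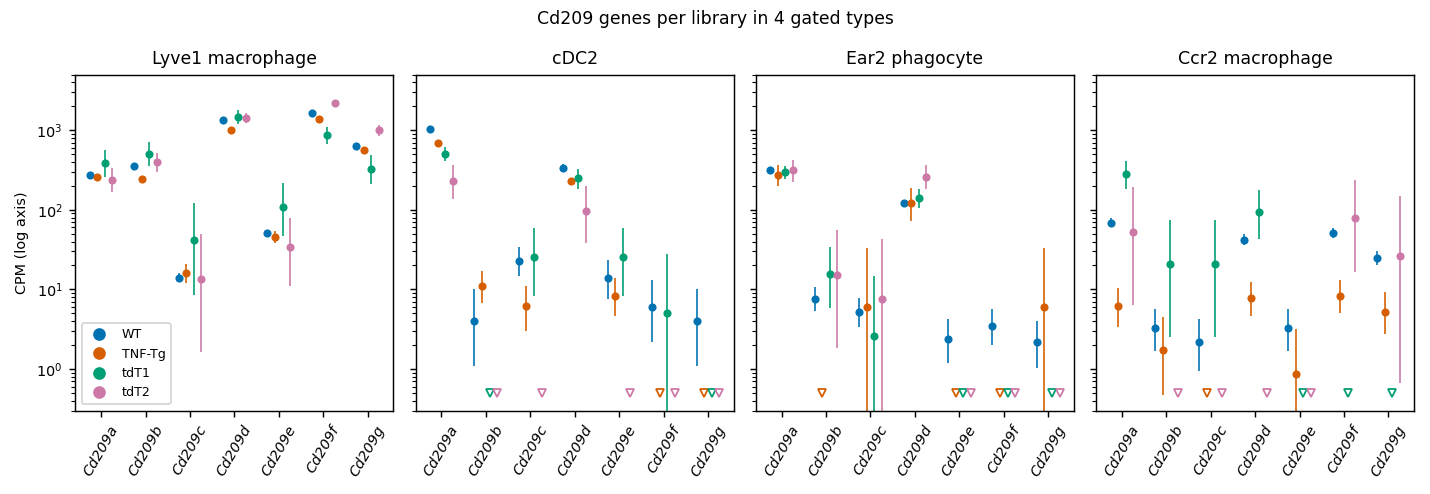
Level of each member (x axis) as CPM (log y axis) in 4 gated types (panels), with 1 point per library in its own colour, 95% exact Poisson intervals as bars and open triangles at the bottom of the axis where a library had 0 UMIs. For Cd209b, Cd209d, Cd209f and Cd209g all points of the Lyve1 macrophage panel lie above all points of the cDC2 panel, whereas those of Cd209a overlap through tdT1 and tdT2.

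The differences between cell types were tested on UMIs summed per type and library (edgeR quasi-likelihood test with the library as a block and Benjamini-Hochberg adjustment over 11101 genes, 10 sums of at least 20 cells from WT, TNF-Tg and tdT2, 3 residual degrees of freedom). The tdT2 library entered with its Lyve1 macrophages only, and its block term fits that sum exactly. All contrasts of this fit, also that with Ccr2 macrophages, therefore rest on WT and TNF-Tg. The tdT2 sum acts only through the filter, the scaling and the estimate of spread. Between Lyve1 macrophages and cDC2, 5 of 7 members were higher in the macrophages, against 18.3% of all genes tested, and 1 was lower, against 17.8%. The log2 difference was 9.22 ± 0.72 (SE) for Cd209f (adjusted p = 6.09e-06) and 8.35 ± 0.60 for Cd209g, 4.79 ± 0.35 for Cd209b, 1.87 ± 0.36 for Cd209e and 1.75 ± 0.41 for Cd209d (adjusted p = 0.00641). Cd209a was lower, at −1.94 ± 0.49 (adjusted p = 0.00985), and Cd209c did not pass, at −0.08 ± 0.54 (adjusted p = 0.934). With DESeq2 in place of edgeR the differences of Cd209a and Cd209d kept their size and missed the threshold (adjusted p = 0.107 and 0.111).

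Against Ccr2 macrophages, all 7 members were higher in Lyve1 macrophages in the same fit, where 5.67% of all genes were higher and 6.38% lower. The log2 differences ran from 2.88 ± 0.54 for Cd209a to 6.66 ± 0.38 for Cd209b, with Cd209d at 5.44 ± 0.49, Cd209f at 5.86 ± 0.53 and Cd209g at 5.27 ± 0.42. The median over the members was 5.27, whereas the median over all genes tested was −0.00. Without the library block the difference of Cd209a missed the threshold (2.55, adjusted p = 0.0603).

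In cDC2, 5 members were higher than in Ccr2 macrophages (background 5.65% of genes higher) and 2 were lower (background 8.1%). Cd209a was higher by 4.82 ± 0.57 on the log2 scale, Cd209d by 3.69 ± 0.46, Cd209c by 3.54 ± 0.76, Cd209e by 2.41 ± 0.53 and Cd209b by 1.87 ± 0.55 (adjusted p = 0.0442). Cd209f and Cd209g were lower, at −3.35 ± 0.83 and −3.08 ± 0.80. The count of lower members was 0 with DESeq2 and 0 without the library block, where Cd209b also missed the threshold (adjusted p = 0.0891) and 4 members were higher, so the calls of Cd209f and Cd209g rest on the block and on the choice of test, and Cd209b turned to −0.14 when the TNF-Tg library was left out and sums of at least 10 cells were used. In that setting 2 of 6 members tested were higher, and 3 of 6 when the WT library was left out. Without tdT2 4 of 7 were higher in sums of at least 10 cells, where Cd209b missed the threshold (1.55, adjusted p = 0.0765).

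Against inflammatory monocytes, gated on Ly6c2, Chil3 and Plac8, the same 5 members, Cd209a to Cd209e, were higher in cDC2 and none was lower (background 2.15% higher and 3.32% lower). Cd209a was higher by 3.73 ± 0.54 and Cd209d by 3.23 ± 0.46 on the log2 scale. For Cd209f and Cd209g, with at most 6 UMIs in either type of either library, the differences were 0.59 ± 1.35 and −0.18 ± 1.22 and did not pass (adjusted p = 0.895 and 0.990). The higher members were 3 without the library block, where Cd209b and Cd209e missed the threshold, and 3 of 6 tested when either WT or TNF-Tg was left out and sums of at least 10 cells were used.

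The make-up of the family separated Lyve1 macrophages from cDC2 in every library, although the leading macrophage member differed in tdT1. In Lyve1 macrophages Cd209f gave 38.3% of the family's UMIs in WT, 39.1% in TNF-Tg, 23.3% in tdT1 and 41.1% in tdT2, and Cd209a gave 6.42%, 7.35%, 10.4% and 4.55%. Cd209d gave 30.9%, 28.6%, 39.6% and 27.0% in the same order, so it led in tdT1. In cDC2 Cd209a gave 72.6% in WT, 73.1% in TNF-Tg, 62.5% in tdT1 and 70.8% in tdT2, and nearly all of the rest was Cd209d, at 23.8%, 24.2%, 30.6% and 29.2%. The share of Cd209a in the family thus did not overlap between these types in any library. A lead of Cd209a was not particular to cDC2. In Ear2 phagocytes it gave 68.8% in WT, 67.2% in TNF-Tg, 64.9% in tdT1 and 52.6% in tdT2. In inflammatory monocytes it gave 70.8% in WT and 61.1% in TNF-Tg. In cDC1 it gave 80.0% in WT, 34.0% in TNF-Tg and 15.7% in tdT1. The shares in monocytes and cDC1 are weak evidence of such a lead. In WT, 41 of 46 Cd209a UMIs of monocytes and 54 of 60 of cDC1 came from 1 cell each. The TNF-Tg monocyte gate held 47 cells of the cDC2 cluster. In the monocyte cluster, Cd209a and Cd209d had 7 and 4 UMIs in WT, and 9 each in TNF-Tg.

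The ratio of Cd209d to Cd209a UMIs told Lyve1 macrophages from cDC2 also in the gates of tdT1 and tdT2, where the level of Cd209a alone did not. In Lyve1 macrophages it was 4.81 in WT (4.66 to 4.97), 3.90 in TNF-Tg (3.61 to 4.21), 3.82 in tdT1 (2.50 to 6.02) and 5.94 in tdT2 (4.14 to 8.76). In cDC2 it was 0.327 in WT (0.289 to 0.370), 0.331 in TNF-Tg (0.296 to 0.371), 0.490 in tdT1 (0.341 to 0.696) and 0.412 in tdT2 (0.144 to 1.04), and in Ear2 phagocytes it was 0.386, 0.444, 0.478 and 0.829. The lowest Lyve1 macrophage ratio was above the highest ratio in cDC2 and Ear2 phagocytes, in tdT1 and tdT2 as well. The ratio did not set all macrophages apart from all dendritic cells. In Ccr2 macrophages it was 0.610 in WT, 1.29 in TNF-Tg and 0.333 in tdT1. In cDC1 it was 0.1 in WT (0.0353 to 0.231), 1.47 in TNF-Tg (0.763 to 2.90) and 5.0 in tdT1 (3.07 to 8.53). These cDC1 ratios rest on few cells. In WT, 54 of 60 Cd209a UMIs came from 1 cell. In TNF-Tg, up to 13 of 25 Cd209d UMIs came from 1 cell, and tdT1 had 9 cDC1. The ratio does not depend on the depth of a library. Its value holds the unknown capture of both genes, which drops out between cell types only if it is the same in all cells.

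**Figure D3:**
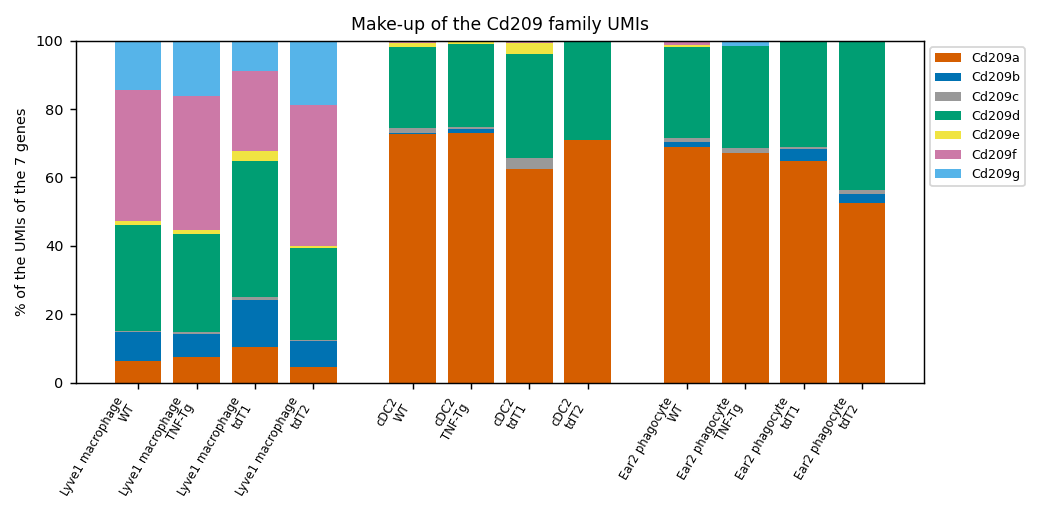
Share of the Cd209 family's UMIs (percent, y axis) that each member (coloured part of a bar) gave in Lyve1 macrophages, cDC2 and Ear2 phagocytes of each library. Cd209a gives 62.5% to 73.1% in cDC2 and 4.55% to 10.4% in Lyve1 macrophages, where Cd209f and Cd209d take its place.

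Seen from the genes, Cd209a was the member whose UMIs were spread most widely. In WT, 45.3% of its UMIs came from Lyve1 macrophages, 14.1% from Ear2 phagocytes, 10.1% from cDC2 and 23.5% from ungated cells, whereas Lyve1 macrophages gave 90.1% of Cd209f UMIs, 89.5% of Cd209b UMIs and 88.6% of Cd209g UMIs while making up 23.8% of the cells. In TNF-Tg, where Lyve1 macrophages were 7.49% of the cells, they gave 25.2% of Cd209a UMIs and cDC2 gave 38.3%, but they still gave 92.3% of Cd209f UMIs and 91.4% of Cd209g UMIs. Summed over all cells of a library, the family stood at 1269 CPM in WT and 406 in TNF-Tg, a sum in which fewer macrophages and less RNA per macrophage cannot be told apart, and which the levels per gated type take apart.

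Within single cells the members were also detected unevenly, but not in the order of the sums. In WT Lyve1 macrophages a UMI of Cd209d was found in 83.3% of cells (81.1 to 85.3%), of Cd209f in 79.8%, of Cd209g in 76.3%, of Cd209a in 67.4% and of Cd209b in 46.7%, at a median depth of 12699 UMIs. In TNF-Tg the shares were 90.9%, 87.0%, 85.0%, 74.4% and 53.9% at a median depth of 11372. In stromal cells, which should lack these genes, the shares were 5.77%, 6.48%, 3.55%, 2.53% and 2.04% in WT at a median depth of 14704 and at most 1.63% in TNF-Tg at 11687, so the shares of all 5 members were above this background.

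In WT cDC2 a UMI of Cd209a was found in 80.0% of cells (69.2 to 88.4%) and of Cd209d in 50.7% (38.9 to 62.4%) at a median depth of 13750, and in TNF-Tg in 77.9% and 42.9% at 12376. The shares of Cd209f, Cd209g and Cd209b in WT cDC2 were 6.67% (2.20 to 14.9%), 5.33% (1.47 to 13.1%) and 2.67% (0.320 to 9.30%). These intervals hold the shares of the WT stromal cells, and the shares are read as background. In TNF-Tg cDC2, 0 of 140 cells had a UMI of Cd209f or Cd209g (upper 95% limit, 2.60%). The median WT cDC2 held 11 Cd209a UMIs and 1 Cd209d UMI, and the median WT Lyve1 macrophage held 2 and 13, with 15 of Cd209f and 5 of Cd209g.

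The members were largely found in the same macrophages. With each cell thinned to 3000 UMIs, 4 members at once was the most common number in WT Lyve1 macrophages (28.0% of 1283 cells), 14.6% held none and 0.546% held all 7. Cd209g was found in 79.9% of the 962 cells with Cd209f and in 11.2% of the 321 without, and in TNF-Tg in 84.7% of 190 and 24.6% of 57. Cd209f was found in 91.7% of the 565 WT macrophages with Cd209a and in 61.8% of the 718 without. In TNF-Tg these shares lay closer together, at 84.1% of 107 and 71.4% of 140. Cd209g by Cd209e went the other way in TNF-Tg, with 59.3% of the 27 cells with Cd209e and 72.3% of the 220 without. The top 10% of cells held 51.7% of the thinned Cd209b UMIs and 45.3% of those of Cd209a in WT, and 45.5% and 45.4% in TNF-Tg, whereas they held 29.3% of those of Cd209d and 31.1% of those of Cd209f in WT and 29.2% and 33.7% in TNF-Tg.

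In thinned cDC2 a cell seldom held more than a pair of members. In WT 44.4% of 72 cells held 1 member, 31.9% held 2, 5.56% held 3 and 0 held 4 or more, and in TNF-Tg the shares were 43.5%, 21.7%, 2.17% and 0 of 138 cells. Cd209a was found in 88.5% of the 26 WT cDC2 with Cd209d and in 67.4% of the 46 without, and in TNF-Tg in 88.2% of 34 and 55.8% of 104. Cells with Cd209d were thus mostly cells with Cd209a. The top 10% of thinned cDC2 held 62.1% of the Cd209d UMIs in WT and 71.6% in TNF-Tg. For Cd209a these shares were 31.4% and 36.0%.

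The level of the macrophage members followed Lyve1 among C1q-high cells. In WT cells with 0 Lyve1 UMIs (488 cells) Cd209f stood at 237 CPM, Cd209d at 203, Cd209g at 125, Cd209a at 99.0 and Cd209b at 50.3. In WT cells with 10 or more Lyve1 UMIs (484 cells) they stood at 1832, 1447, 680, 296 and 383 CPM, with the strata of 1 to 2 and 3 to 9 UMIs between. In TNF-Tg the step was between 0 and any Lyve1 UMI. Cd209f stood at 21.9 CPM in the 170 cells with none and at 1236, 1518 and 1293 CPM in the 3 strata above, and Cd209d at 16.5 CPM and then at 805, 986 and 1040. The median depth of the strata, in the order of their Lyve1 UMIs, was 10256.5, 9622, 11836 and 14766.5 UMIs per cell in WT and 14720.5, 7983, 9276 and 15193 in TNF-Tg. Depth thus climbed with the levels over the upper 3 strata of WT, and its part in them was not tested.

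**Figure D4:**
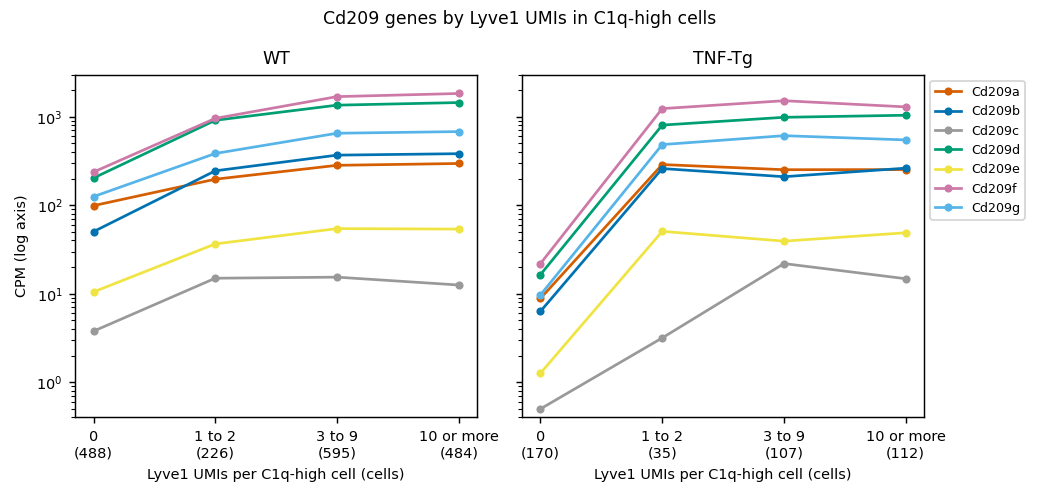
Level of the members (CPM, log axis) in C1q-high cells grouped by their Lyve1 UMIs (x axis), for WT and TNF-Tg, with 0 drawn at 0.5 CPM. The levels of Cd209a, Cd209b, Cd209d, Cd209f and Cd209g climb across the strata in WT, whereas in TNF-Tg they lie at or below 21.9 CPM in cells without Lyve1 and change little between the strata with it.

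In Lyve1 macrophages the TNF-Tg level of each member lay within 2-fold of the WT level. The family summed to 4315 CPM in WT and 3489 in TNF-Tg, a log2 ratio of −0.31 (95% exact interval, −0.34 to −0.28). Cd209b had the lowest ratio, −0.55 (−0.66 to −0.44), followed by Cd209d at −0.42 (−0.47 to −0.36), Cd209f at −0.28 (−0.32 to −0.23), Cd209e at −0.18 (−0.44 to 0.08), Cd209g at −0.16 (−0.23 to −0.08) and Cd209a at −0.11 (−0.22 to −0.00), and Cd209c stood at 0.19 (−0.28 to 0.63). None of the 7 was 2-fold higher or lower, against 5.36% of the 11143 genes with at least 20 UMIs higher and 5.63% lower, and the median over those genes was 0.06. With cells thinned to 3000 UMIs, which gives each cell the same weight, the ratio of Cd209f was 0.02 and that of Cd209g 0.26, so the direction of these members was not the same under thinning, which also left out the 21 WT and 7 TNF-Tg cells below that depth. A list of 5 neutrophil genes, none of them at 0, summed to 301 CPM in WT and 927 in TNF-Tg, and 190 of the 1304 WT cells but 6 of the 254 TNF-Tg cells fell into the cluster of the Ccr2 macrophages when cells were clustered instead of gated. Their part in the ratios was not tested.

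In cDC2, where Cd209a is the main member, its level was 1031 CPM in WT and 686 in TNF-Tg, a log2 ratio of −0.59 (−0.71 to −0.47), and Cd209d stood at −0.57 (−0.78 to −0.36). The ratio of Cd209d to Cd209a was 0.327 and 0.331 in these libraries. Of 5 members with at least 20 UMIs over both libraries, Cd209c was at least 2-fold lower, at −1.91 (−3.09 to −0.81, 23 and 11 UMIs), where 5.39% of 7645 genes were. Cd209b was at least 2-fold higher, at 1.48 with an interval that holds 0 (−0.10 to 3.49, 4 and 20 UMIs), where 5.42% were. Cd209c reached 20 UMIs through WT and Cd209b through TNF-Tg, so both directions lean on the filter. With clusters in place of gates (153 and 248 cells) Cd209b turned to −1.54 (−2.44 to −0.70, 39 and 18 UMIs), Cd209a gave −1.08 (1438 and 679 CPM), and 3 of the 5 members were at least 2-fold lower and none higher. The share of cDC2 with any member was 82.7% in WT and 79.3% in TNF-Tg, and 81.9% and 67.4% after thinning to 3000 UMIs.

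The widest gap between TNF-Tg and WT was in the Ccr2 macrophages. Cd209a stood at 69.1 CPM in 294 WT cells and at 6.16 in 147 TNF-Tg cells, which is −3.49 on the log2 scale (−4.38 to −2.72). The ratio was −2.62 (−3.39 to −1.94) for Cd209f, −2.41 (−3.21 to −1.71) for Cd209d and −2.25 (−3.25 to −1.37) for Cd209g. All 4 members with at least 20 UMIs over both libraries were at least 2-fold lower and none was higher. Of 9378 genes, 10.9% were lower and 5.16% higher, and the median over those genes was −0.07. Cd209a, Cd209f, Cd209d and Cd209g passed this filter only through WT, with 254, 189, 155 and 92 UMIs against 14, 19, 18 and 12 in TNF-Tg. The count of lower members was thus partly fixed by the filter. Cd209b (12 and 4 UMIs), Cd209c (8 and 0) and Cd209e (12 and 2) were left out. In the clustering, 77 of the 294 WT cells of this gate but 12 of the 147 TNF-Tg cells fell into the cluster of the Ear2 phagocytes, where Cd209a stood at 204 CPM in WT. The cluster of the Ccr2 macrophages itself gave 87.2 CPM of Cd209a in WT and 12.5 in TNF-Tg. In the tdT libraries Cd209a stood at 279 CPM (11 cells) and 53.3 CPM (10 cells) in this gate.

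Other values moved with this gap. The family in stromal cells, the background, stood at 18.8 CPM in WT and 5.27 in TNF-Tg, a log2 ratio of −1.83 (−2.19 to −1.49), so the level in Ccr2 macrophages was above that of stromal cells in both libraries (197 and 30.3 CPM for the family). The list of 6 Lyve1 macrophage gate genes, of which Lyve1 was at 0 by the gate, summed to 2604 CPM in WT Ccr2 macrophages and 1577 in TNF-Tg, and Ccl8, a chemokine gene of the Lyve1 macrophages, stood at 1795 and 69.9 CPM. Their part in the difference was not tested. In the C1q-high cells of neither gate, 195 in WT and 23 in TNF-Tg, the family stood at 2519 and 867 CPM, a log2 ratio of −1.54 (−1.87 to −1.23).

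In Ear2 phagocytes, with 10 cells in TNF-Tg, Cd209a stood at −0.21 (−0.67 to 0.22) and Cd209d at −0.01 (−0.73 to 0.63) on the log2 scale of TNF-Tg over WT. In inflammatory monocytes Cd209a stood at −0.32 (−0.77 to 0.16) and Cd209d at 0.76 (−0.08 to 1.74), and none of these intervals left out 0. With clusters in place of gates the Ear2 phagocytes (299 and 24 cells) gave 204 CPM of Cd209a in WT and 51.4 in TNF-Tg, −1.99 (−2.73 to −1.34), and 92.6 and 13.5 CPM of Cd209d, −2.78 (−4.41 to −1.54), so their ratios depend on how the cells were chosen. The 297 Cd209a UMIs of the TNF-Tg monocyte gate lay in 53 of 446 cells, up to 26 in 1 cell. Of these 446 cells, 47 fell into the cDC2 cluster and 116 into that of the Ccr2 macrophages, against 1 and 11 of the 59 WT cells, and in the cluster of the inflammatory monocytes Cd209a stood at 9.44 CPM in WT and 1.76 in TNF-Tg. The gate thus held cells of the cDC2 cluster, which lie on the monocyte side of the test against cDC2.

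**Figure D5:**
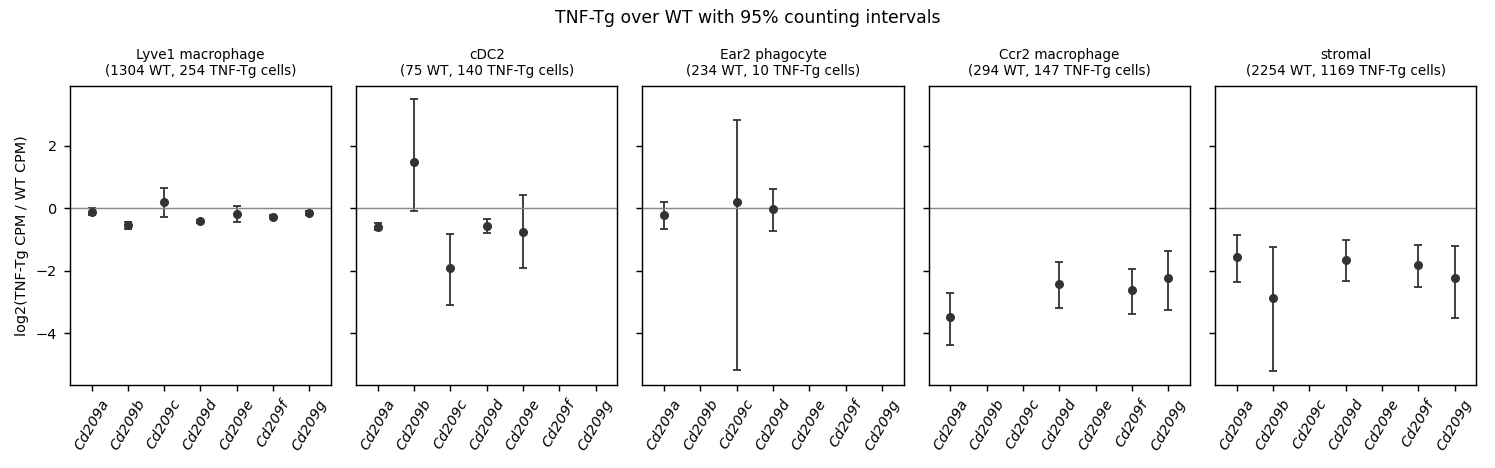
Log2 ratio of TNF-Tg over WT CPM (y axis) of each member (x axis) in 5 gated types (panels), with 95% exact intervals for counting error as bars and a line at 0, for members with at least 20 UMIs over both libraries and UMIs in both. The points of the Ccr2 macrophages lie between −3.49 and −2.25, and those of the Lyve1 macrophages between −0.55 and 0.19.

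The genes with the levels most like each member were found over 16 sums of cell type and library with at least 20 cells. They were ranked among 7385 genes, with the gate markers and the members left out, and pairs of members were taken apart from this ranking. These sums share libraries, so the correlations are descriptions. Cd209f and Cd209g were most like each other (r = 0.996), followed for Cd209f by the complement gene C6, the Wnt co-receptor Lrp6 and Ccl8 (r = 0.97 each) and for Cd209g by Lrp6, the sphingosine phosphate receptor S1pr1 and the phospholipase Pla2g2d (r = 0.98 each). Cd209b was most like Gprc5b (0.95), Mesd (0.93) and the ficolin Fcna (0.92), and Cd209d was most like Gprc5b (0.88), the galactose lectin Clec10a (0.85) and Ggt5 (0.82). The highest values of Cd209a were lower, with the cytokine co-receptor Il6st (0.84), Tnip2 (0.79) and Marveld1 (0.78), and Cd209e was most like Rcn3 (0.90), the IgG transport receptor gene Fcgrt (0.89) and Siglech (0.89). Cd209c was most like Vkorc1 (0.83), Zfp994 (0.83) and Il6st (0.80). Between members, Cd209a correlated with Cd209c (0.80) and Cd209d (0.79) and least with Cd209f (0.23) and Cd209g (0.25). Cd209d correlated with Cd209b at 0.891, above its 0.884 with Gprc5b, and Cd209c with Cd209d at 0.855, above its 0.831 with Vkorc1.

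Other C-type lectin receptors and their signalling genes were split between the cell types. Of 24 genes on the list, 20 were tested, and between Lyve1 macrophages and cDC2 7 were higher, 6 were lower and 7 did not pass, where 18.3% of all genes were higher and 17.8% lower, with a median log2 difference of 0.37. The mannose receptor gene Mrc1 (4.19), Clec4d (2.74) and Clec5a (2.41) had the largest differences toward macrophages, and Lsp1, a partner of DC-SIGN signalling (−5.04), Clec4b1 (−4.02) and the Mincle gene Clec4e (−2.41) toward cDC2. Against Ccr2 macrophages 2 were higher and 5 lower in Lyve1 macrophages, where 5.67% of all genes were higher and 6.38% lower, whereas all 7 Cd209 members were higher.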

How the data were processed

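Single-cell RNA was captured with the 10x Genomics 3′ chemistry from the dissected popliteal lymphatic vessels and saphenous vein. The deposited values are raw UMI counts for each gene in each barcode that Cell Ranger, as run by the authors, called a cell (3.1 and 3.1.0 in the submitters' processing notes, with the build mm10 and Seurat 4.0.3; the matrix headers name 3.1.0 and 6.0.1). The gene annotation is not given in the sources used here. No cells were removed except in alternatives. The libraries tdT1, tdT2, WT and TNF-Tg held 14256192, 2357031, 68773605 and 37557627 UMIs, of which the Cd209 family made up 1090, 1047, 87258 and 15254. Scrublet, run in scanpy 1.11.5, predicted 4, 1, 138 and 72 doublets, which were left out in an alternative.

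Cells were gated on fixed marker genes, with at least 16 C1q UMIs per 10000 for C1q-high cells and at least 20 Col1a1, Col3a1 and Dcn UMIs per 10000 for stromal cells, and cells passing several gates stayed ungated. The members, gates and lists were chosen with earlier results of these data known. The named genes were all 7 members, the 3 genes outside the family most like each in Pearson correlation of log2(CPM + 1), and the 3 largest differences in each direction of the C-type lectin list. UMIs were summed per gate and library (numpy 2.4.6, scipy 1.17.1, pandas 2.3.3, Python 3.11.15, matplotlib 3.10.9) and tested in R 4.3.3 with edgeR 4.0.16 (TMM, filterByExpr, library block, threshold 0.05). Simulated counts were drawn from the means and the trended spread of the edgeR fit itself, with the depth of the sums. Genes of the lowest means were not among those changed. On these data edgeR recovered 18, 39, 45 and 47 of 50 genes changed by 1, 2, 3 and 4 on the log2 scale among 11101, with 3 false calls. Data made by the same model cannot test whether its spread holds for these libraries. Levels have exact Poisson, shares Clopper-Pearson and ratios conditional binomial intervals at 95%. Libraries, not cells, were the unit of each test, and according to the study the libraries were prepared on different days. The alternatives were DESeq2 1.42.0, no low-count filter, no library block, sums of at least 10 cells, thinning to 3000 and 1500 UMIs, 20 Seurat 5.3.0 clusters (1994 features, 30 dimensions, resolution 0.5) in place of gates, TMM scaling, removal of predicted doublets or of cells above 10% mitochondrial UMIs or below 500 genes, and leaving out each library. Promoters are those of RefSeq (GRCm38.p6), which held all 7 members, and gene positions are those of GENCODE vM21.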

Additional observations from a re-analysis of the deposited data

Results flagged for a closer look

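Cd209d was flagged because its TNF-Tg to WT ratio in cDC1 had the opposite sign to that in other types. The log2 ratio was 2.76 (1.44 to 4.34) in cDC1, whereas it was −0.42 in Lyve1 macrophages, −2.41 in Ccr2 macrophages and −0.57 in cDC2. It rests on 25 UMIs in 2 of 32 TNF-Tg cells and 6 UMIs in 59 WT cells, and the difference between types was not tested. The sign turned in the cluster that held 56 WT cells and 28 TNF-Tg cells of the cDC1 gate, whose leading genes included the proliferation genes Top2a and Mki67, where Cd209d stood at 72.1 CPM in WT and 9.76 in TNF-Tg (−2.89, −3.75 to −2.13).

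Signals were also flagged in cells that no test used. Cd209d stood at 834 CPM in the 9 cDC1 of tdT1, against 0.779 CPM in the stromal cells of that library, and its 100 UMIs came from 2 cells. Cd209a stood at 431 CPM in the 528 ungated cells of WT, against 3.87 CPM in WT stromal cells, where Cd209d stood at 355 CPM, a ratio of Cd209d to Cd209a of 0.822 that lies between those of cDC2 and Lyve1 macrophages.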

How the results depend on the processing

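WT and TNF-Tg each supplied both cell types of every contrast, so the library block compared the types within a library. Between WT and TNF-Tg themselves no pairing existed. Leaving out WT or TNF-Tg at sums of at least 20 cells left no residual degrees of freedom and could not be fitted, and leaving out tdT1 changes nothing by construction. With sums of at least 10 cells and each library left out in turn, an alternative added after seeing the data, the members higher in cDC2 than in Ccr2 macrophages numbered 2 (without TNF-Tg) to 5 and those higher than in inflammatory monocytes 3 (without WT or TNF-Tg) to 5, against 5 and 5. Without tdT2 the former numbered 4. Of the members, 6 were left to test without WT or TNF-Tg.

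With DESeq2 the members lower were 0 between Lyve1 macrophages and cDC2 and 0 between cDC2 and Ccr2 macrophages, against 1 and 2. Without the library block they were 0 between cDC2 and Ccr2 macrophages, where 4 were higher against 5, and the members higher against inflammatory monocytes were 3. The sign turned for Cd209c between Lyve1 macrophages and cDC2 (0.055, DESeq2), for Cd209f (−0.017, DESeq2) and Cd209g (0.093 without the block, 0.74 without TNF-Tg) between cDC2 and inflammatory monocytes and for Cd209b between cDC2 and Ccr2 macrophages (−0.14 without TNF-Tg). No call of a member changed with sums of at least 10 cells from all libraries or without the low-count filter. None changed when predicted doublets or low-quality cells were removed. Leaving out tdT1 or tdT2 at sums of at least 20 cells also changed no call, but could hardly do so. There tdT1 had no sum, and the tdT2 sum was fitted exactly by its own block term. Leaving it out acts only through the filter, the scaling and the estimate of spread.

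Clusters in place of gates gave TNF-Tg to WT log2 ratios of the family of −0.49 in Lyve1 macrophages, −3.34 in Ccr2 macrophages, −1.04 in cDC2 and −1.79 in inflammatory monocytes, against −0.31, −2.69, −0.60 and −0.11, and −2.27 in Ear2 phagocytes against −0.18. Thinning to 3000 UMIs gave −0.072 in Lyve1 macrophages and 0.50 in inflammatory monocytes and turned Cd209f (0.019) and Cd209g (0.26) in Lyve1 macrophages, and TMM scaling gave −0.42. The share of Lyve1 macrophages with any member was 85.4% (WT) after thinning to 3000 UMIs and 82.4% and 89.4% (WT and TNF-Tg) after thinning to 1500, against 89.3% and 94.5%, and that of cDC2 was 67.4% (TNF-Tg) and then 62.7% and 57.1%, against 82.7% and 79.3%. Fewer UMIs per cell lower a share by construction, and the cause of the other shifts was not tested.

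Depth limits Cd209c and Cd209e, which had at most 25.3 CPM in cDC2, and every value from tdT1 and tdT2 cDC2 (16 and 8 cells).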
